A study of Bubalus bubalis with 8 samples.

Results

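The cytosolic ribosomal proteins were represented on the bovine oligonucleotide array by 304 of its 43653 distinct non-control probes, which carried 82 of its 24839 gene names. Members were taken by name: every non-control probe whose gene name was RPL or RPS followed by a number, with or without a paralog letter, a stalk name (RPLP) or RPSA. The large subunit held 187 probes of 50 genes and the small subunit 117 probes of 32 genes. No measured value entered this choice, although 18 probes that lay in a dark region of the control array were left aside, which left 286 probes, 174 of the large and 112 of the small subunit.

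Mammary epithelial cells grown from the gland of one healthy adult buffalo, at passage 10, were kept at 37 °C (CTR) or held at 42 °C for 1 h and returned to 37 °C, and RNA was taken 30 min, 2, 4, 8, 12, 16 and 24 h into recovery. Each of the 8 conditions had 1 array, so that no comparison below has a test, and every value describes these arrays alone. CTR, 8 h, 12 h and 24 h shared one slide (slide 1) and 30 min, 2 h, 4 h and 16 h the other (slide 2), so for slide 2 a difference from CTR cannot be told apart from a difference between slides. All cells came from 1 animal, and the probes are of cattle sequence.

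The ribosome is built from ribosomal RNA and a set of proteins that are needed in equal amounts, the small subunit reading the messenger RNA and the large subunit joining amino acids. Ribosomal protein transcripts are among the most abundant in any dividing cell, and most begin with a terminal oligopyrimidine (TOP) tract through which their translation is adjusted together when cells are starved or stressed. In mammary epithelium, translation capacity is of interest because milk protein synthesis draws heavily on it.

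Several results below turned on which probe of a gene was read, and the sequences of the probes concerned are shown first, as the scanner files give them, 5′ to 3′, with positions on the bovine build HGSC Btau_3.1 that the files use. The first set gives overlapping probe pairs of RPS23, a small subunit protein near the decoding centre, and of RPL17, a large subunit protein near the exit tunnel. Capitals mark the bases at which the members of a pair differ. The RPS23 probes lay at chr7:83147589-83147648 and chr7:83147592-83147651, shared 57 positions and differed at 2 of them. The RPL17 probes lay on different chromosomes, at chr24:50819575-50819634 and chr7:64178017-64178076, shared 38 positions and differed at 1, so that they may read different copies of the gene.
RPS23 A_73_P055346: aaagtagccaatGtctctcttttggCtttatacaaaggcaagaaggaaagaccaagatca
RPS23 A_73_P094301: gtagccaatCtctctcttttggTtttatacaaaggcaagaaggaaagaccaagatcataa
RPL17 A_73_P064436: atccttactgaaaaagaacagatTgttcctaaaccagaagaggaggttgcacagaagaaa
RPL17 A_73_P085516: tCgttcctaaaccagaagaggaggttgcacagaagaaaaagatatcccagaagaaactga

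The second set shows probes that ran opposite to the others of their gene. For RPL10, a large subunit protein needed for the joining of the subunits, the probes at chrX:23718039-23718098 and chrX:23718027-23718087 were reverse complements over the 49 bases in capitals. For RPL27, the probe at chr19:44435313-44435337 ran opposite to the RefSeq-derived probe at chr19:44437285-44437344.
RPL10 A_73_P099911: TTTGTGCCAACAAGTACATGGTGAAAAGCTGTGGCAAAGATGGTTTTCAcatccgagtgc
RPL10 A_73_P098936: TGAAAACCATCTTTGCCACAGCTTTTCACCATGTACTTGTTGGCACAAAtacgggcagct
RPL27 A_73_119499: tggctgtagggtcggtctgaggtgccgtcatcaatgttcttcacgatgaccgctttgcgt
RPL27 A_73_P215362: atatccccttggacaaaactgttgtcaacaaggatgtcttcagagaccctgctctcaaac

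The third set gives, for the 3 probes that were higher on the earliest arrays, the stretch around AATAAA (capitals), the letters of the canonical polyadenylation signal. They are bases 23 to 52 of the RPL12 probe at chr10:85571948-85572014, bases 26 to 55 of the RPL19 probe at chr19:40957540-40957599 and bases 29 to 58 of the RPS21 probe at chr13:55580605-55580661. AATAAA was searched on the probe strand only and occurred in 77 of the 304 member probes (25.3%) and in 9.35% of all probes.
RPL12 A_73_P045796: tgcaaaggaaAATAAAggaccatttgacaa
RPL19 A_73_P048946: tcactcattcAATAAAagacaagcctttat
RPS21 A_73_113374: atttgttataAATAAAtagtgaaaacttaa

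Levels below are log2 intensities relative to the 75th percentile of the array, and a change is the level at a time point minus the level of the same probe on CTR. The 75th percentile itself was 212 intensity units on CTR, 121 at 16 h and between 301 and 423 at 2, 4, 8, 12 and 24 h. The 30 min levels were taken from the deposited log2 values, since the scanner intensities at 30 min departed from them. A probe counted as measured in a comparison where it stood well above background on both arrays, and the error of a change, from the spread between repeat spots of the same probe, was 0.26 to 0.43 log2 units. This error holds nothing of the spread between cultures. On CTR, 244 of the 286 member probes (85.3%) were well above background, against 26.5% of all probes. Epithelial keratin and adhesion markers were measured on every array (6 or 7 of 7 genes), with a summed level of 567 on CTR and 181 to 444 at the 7 time points. The heat shock gene HSPA1A was higher than CTR at 30 min to 12 h by 0.78 to 4.56 log2 units, with changes of −0.06 at 16 h and −1.12 at 24 h. Further heat shock genes took other courses. HSPB1 was above CTR at all 7 time points (0.57 to 2.14), highest at 16 h. DNAJB1 had 1.18, 0.15, 0.20, 1.65, −0.17, 0.40 and −0.65 in order of time, and HSPH1 1.49, 1.35, 0.70, 2.88, 0.98, −1.19 and −0.02.

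The ribosomal protein probes as a group read lower than CTR at all 7 time points, and their median was lowest on the early arrays of slide 2. The median change was −0.75 (30 min, 235 probes), −0.85 (2 h, 241), −0.74 (4 h, 240) and −0.33 (16 h, 223). On slide 1, it was −0.25 (8 h, 240), −0.57 (12 h, 236) and −0.44 (24 h, 229). All other probes had medians of −0.20, −0.40, −0.16, −0.13, −0.29, −0.00 and −0.12 at 30 min, 2, 4, 8, 12, 16 and 24 h, so the members lay below them by 0.12 (8 h) to 0.58 (4 h). Under quantile normalization the medians of the members themselves remained below 0, but members and other probes differed by +0.00 (30 min), +0.05 (2 h), −0.11 (4 h), +0.09 (8 h), +0.12 (12 h), −0.18 (16 h) and −0.00 after 24 h, so the position of the members below the other probes was lost or turned at 30 min, 2 h, 8 h, 12 h and 24 h.

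Counted probe by probe, 59 of 235 members (25.1%) were lower than CTR by 2-fold or more at 30 min, where 15.1% of all measured probes were. At 2 h, the count was 103 of 241 (42.7%) beside 23.2% of all probes, and at 4 h 80 of 240 (33.3%) beside 14.5%. At 16 h it was 36 of 223 (16.1%) beside 11.3%. On slide 1 such probes were few, with 2 of 240 (8 h, 0.833%, beside 3.01%), 18 of 236 (12 h, 7.63%, beside 5.89%) and 15 of 229 (24 h, 6.55%, beside 3.74%). Members higher by 2-fold or more numbered 3 (30 min, beside 7.91% of all probes), 3 (2 h, beside 5.58%), 2 (16 h, beside 9.35%) and none at 4, 8, 12 and 24 h, where 5.73%, 2.29%, 0.843% and 0.658% of all probes were.

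Many of these transcripts were too bright for the scanner, and this set some of the medians. Of the 304 member probes, 93 (30.6%) in 50 genes were saturated on at least 1 array, while 190 probes of the whole array were. On CTR 43 of the 89 saturated probes were ribosomal (48.3%), at 12 h 92 of 172 and at 16 h 5 of 9, although members made up 0.696% of the probes. A probe saturated on both arrays cannot show a change, and its value is then only the difference between the 75th percentiles of those arrays. Such probes had a median of −0.99 at 12 h (40 probes, from −1.03 to −0.90), close to the difference between the percentiles, and of +0.85 at 16 h (5 probes, from 0.83 to 0.87), where the percentiles differed by +0.82. Such values are no folds, yet the medians and counts above include them, and the next values leave them out.

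With probes saturated on either array left out, the median change was −0.71 (30 min, 189 probes), −0.94 (2 h, 198), −0.78 (4 h, 194) and −0.42 (16 h, 185). It was −0.16 (8 h, 167), −0.45 (12 h, 158) and −0.34 (24 h, 170). Leaving them out thus moved the 8 h, 12 h and 24 h values towards 0 and the 2 h, 4 h and 16 h values away from it. Unsaturated members lay below the other unsaturated probes by 0.03 (8 h), 0.17 (12 h) and 0.22 (24 h), and by 0.41 to 0.62 on slide 2. Under quantile normalization the difference, members minus others, shrank to −0.13 (30 min), −0.06 (2 h), −0.27 (4 h) and −0.27 (16 h) on slide 2. On slide 1 it was then +0.04 (8 h), +0.07 (12 h) and −0.04 (24 h). At 12 h the count of members lower by 2-fold or more was 8 of 158 (5.06%), beside 5.81% of all unsaturated probes. At 8 h it was 2 of 167 (1.20%, beside 3.05%) and at 16 h 35 of 185 (18.9%, beside 11.4%). Probes saturated on CTR but not at the later time numbered 21, 15 and 33 at 2 h, 4 h and 16 h. For these the change is a bound, since the true CTR level was at or above the reading. At 30 min 31 probes were flagged in this way. Those flags came from the scanner file whose intensities departed from the values used. Which 30 min values were saturated is therefore not known, and the 189 probes above may include some.

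The medians of the large and small subunits were −0.79 against −0.71 at 30 min, −0.95 against −0.67 at 2 h, −0.78 against −0.71 at 4 h and −0.35 against −0.22 at 16 h. On slide 1 they were −0.27 against −0.21 at 8 h, −0.55 against −0.60 at 12 h and −0.43 against −0.48 at 24 h. The widest difference was at 2 h, where the large subunit was lower by 0.28 and, among unsaturated probes, by 0.36 (−1.03 against −0.67). Probes of a subunit are not replicates of it. With CTR kept as baseline and usable intensities, the 2 h difference (large minus small) ran from −0.36 to −0.21 over the processing settings. The 16 h difference ran from −0.23 to −0.09. Under every such setting the difference was below 0 at 30 min, 4 h and 8 h, whereas its sign varied at 12 h and 24 h. Replacing the CTR baseline by 16 h or by each probe's median level makes another comparison. This brought the 2 h difference to as little as −0.03 and the 16 h difference to −0.05. It also gave positive values for 30 min (0.09), 4 h (up to 0.10) and 8 h (0.06). The size of the error of such a difference between medians was not measured.

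Reading 1 value per gene, as the median of its probes that were measured and unsaturated on all 8 arrays, gave values for 65 of the 82 genes (142 probes). Of these, 33 were below CTR at all 7 time points, beside 20.4% of all 5272 gene names read the same way, and 0 were above it at all 7. The first count was 25 under quantile normalization and 26 with the median of bright probes as centre. Over the 6 time points without 30 min it was 35, and 18 with normexp background correction. The share over all gene names was not read for these other settings, so their counts cannot be set against 20.4%. The lowest value fell at 2 h for 29 genes, 4 h for 12, 16 h for 10, 30 min for 7, 12 h for 5, and 8 h and 24 h for 1 each. The time of the lowest value was not counted over all gene names. The median of all other probes was also lowest at 2 h (−0.40), so these counts are not particular to the members. The mean over slide 2 was lower than that over the slide 1 time points for 52 of the 65 genes, beside 48.4% of all gene names.

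Among the small subunit genes, RPS6, whose protein is the substrate of S6 kinase downstream of mTOR, had the lowest gene values at 2 h and 4 h, RPS12 being the lowest at 30 min. Its probe A_73_P096496 read 7.36 (CTR), 4.74 (30 min), 4.71 (2 h), 4.85 (4 h), 6.99 (8 h), 6.43 (12 h), 6.00 (16 h) and 6.67 after 24 h. The 3 early arrays were thus the lowest and did not overlap with the other 5. Over its 4 usable probes, the RPS6 change was −1.93 (30 min), −2.50 (2 h) and −2.47 (4 h), then −0.31 (8 h), −0.57 (12 h), −1.35 (16 h) and −0.64 after 24 h. The probes of RPS6 did not move alike, with median changes from −2.04 (A_73_P090016) to −0.46 (A_73_P337461).

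RPS12, a protein of the small subunit's beak region, was low to the end of the course. Its probe A_73_P046601 read 7.31 (CTR), 5.32 (30 min), 5.76 (2 h), 5.31 (4 h), 7.12 (8 h), 6.21 (12 h), 5.85 (16 h) and 5.03 after 24 h. Here 8 h was nearest to CTR and 24 h was the lowest. RPS24 had changes of −1.38, −1.81 and −1.77 at 30 min, 2 h and 4 h, −0.02 (8 h), −0.65 (12 h), −1.16 (16 h) and −1.24 (24 h, 2 probes). RPSA, the laminin receptor homolog that is also a small subunit protein, was at −1.15 (30 min), −0.90 (2 h), −0.41 (4 h), −0.54 (8 h), −0.09 (12 h), −0.53 (16 h) and −0.25 after 24 h, the 4 h and 12 h values turning above 0 under normexp correction.

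RPS3, which lines the messenger RNA entry channel and also takes part in DNA repair, stayed near CTR. Its change over 3 unsaturated probes was 0.04 (30 min), −0.20 (2 h), 0.07 (4 h), −0.16 (8 h), −0.16 (12 h), 0.49 (16 h) and −0.10 after 24 h, and the sign at 2, 12 and 24 h turned under other scalings. All but the 16 h value lay within the error of a change. RPS27A, which is made as a fusion with ubiquitin, was saturated on 7 of the 8 arrays at its measured probe and has no readable change.

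In the large subunit, the stalk recruits the elongation factors and is formed by RPLP0 with RPLP1 and RPLP2. RPLP0 had changes of −0.92 (30 min), −1.13 (2 h), −0.79 (4 h), −0.45 (8 h), −0.54 (12 h), −0.76 (16 h) and −0.48 after 24 h over 4 probes. RPLP1 took another course at its 1 unsaturated probe, A_73_P492953, which read 7.15 (CTR), 7.02 (30 min), 6.76 (2 h), 6.60 (4 h), 6.77 (8 h), 5.87 (12 h), 4.52 (16 h) and 4.92 after 24 h. The late arrays of both slides were the lowest, at −1.28, −2.63 and −2.23 from CTR at 12, 16 and 24 h. The change of −0.12 to −0.55 at 30 min, 2 h and 4 h turned above 0 under at least 1 other scaling. The other 2 RPLP1 probes were saturated on 2 and 6 arrays, and RPLP2 had no probe that was both measured and unsaturated on all 8.

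RPL5 and RPL11 form a particle with the 5S ribosomal RNA that binds MDM2 when ribosome assembly is disturbed. RPL5 probe A_73_P439356 read 5.49 (CTR), 4.15 (30 min), 3.88 (2 h), 4.23 (4 h), 5.31 (8 h), 5.09 (12 h), 4.28 (16 h) and 4.93 after 24 h. All 4 arrays of slide 2 were below all 4 of slide 1. Over 2 probes the RPL5 change was −1.20, −1.44 and −1.20 at 30 min, 2 h and 4 h, −0.14 (8 h), −0.40 (12 h, above 0 under normexp), −0.85 (16 h) and −0.42 after 24 h. RPL11 had 1 measured probe, saturated on 3 arrays, with changes of −0.70, −1.06, −0.61 and −0.04 at 30 min, 2 h, 4 h and 16 h.

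RPL22, a large subunit protein without which mice are viable, and its paralog RPL22L1 were both low. The RPL22 probe read 6.04 (CTR), 4.81 (30 min), 4.53 (2 h), 4.26 (4 h), 6.05 (8 h), 5.31 (12 h), 3.84 (16 h) and 5.36 after 24 h. RPL22L1 probe A_73_P492058 read 4.79 (CTR), 2.93 (30 min), 2.76 (2 h), 3.51 (4 h), 4.24 (8 h), 3.77 (12 h), 3.86 (16 h) and 3.11 after 24 h. RPL22 at 8 h was level with CTR (0.01), whereas every time point of RPL22L1 was below CTR on both of its probes. Its gene-level changes were −1.66, −2.21, −1.06, −0.79, −1.31, −1.59 and −1.57 in order of time, the lowest median change of the 65 genes.

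The other paralogs took other courses. RPL26L1 had changes of 0.27 (30 min), 0.31 (2 h), 0.61 (4 h) and 0.21 (8 h), then −0.06, −0.20 and −0.16 at 12, 16 and 24 h, the 12 h and 24 h signs depending on the scaling. RPL7L1 was at −0.99 (30 min), −0.49 (2 h), −0.53 (4 h, both above 0 under at least 1 other scaling), 0.24 (8 h), 0.43 (12 h), −0.52 (16 h) and 0.10 after 24 h. RPS27L, a p53-responsive paralog of RPS27, was at −1.04 (30 min), −0.64 (16 h) and −0.33 after 24 h, and its values of −0.56, −0.59, 0.05 and −0.24 at 2, 4, 8 and 12 h changed sign with the scaling. RPL3L and RPL10L, known from muscle and testis, were not well above background on most or all arrays, and RPL39L had no probe among the members.

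RPL4 and RPS23 served as reference genes for quantitative PCR in the study, together with EEF1A1, which encodes an elongation factor. RPL4 had changes of −0.75, −0.96, −0.60, −0.40, −0.32, −0.47 and −0.35 in order of time over 4 probes, with the 4 h and 12 h values above 0 under normexp. RPS23 was at −0.27 (above 0 with the bright-probe centre), −0.58 (above 0 under normexp), −1.16, −0.28, −0.56, −1.74 and −0.94 over 2 probes. These probes lay far apart at some times. A_73_P055346 had −0.51 (4 h), −0.42 (16 h) and −0.35 (24 h), where A_73_P094301 had −1.81, −3.06 and −1.52, so neither probe shows the gene value there. EEF1A1 had 0.10, −0.06, −0.39, −0.54, −0.25, 0.14 and −0.01. It was nearer to CTR than the gene values of RPL4 and RPS23 at each time point except 8 h, where it was farther. It was measured at 8 probes, and at 7 of them at 24 h. Saturated EEF1A1 probes were not left out, as they were for RPL4 and RPS23, and EEF1A1 was not read under other scalings. The order of the 3 reference genes therefore compares unlike measures.

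The range over the 8 arrays was taken as the highest minus the lowest level of a probe. The 211 members measured on all 8 had a median range of 1.17 log2 units, against 1.18 for the 7038 other probes. The large subunit had a median of 1.24 and the small subunit 1.14. RPL4 probes spanned 1.02, 1.04, 1.11 and 2.39, the last ranking 199 of 211. RPS23 probe A_73_P055346 spanned 0.76 (rank 29) and A_73_P094301 spanned 3.06 (rank 209). The narrowest were RPL28 (0.38), RPL13 probe A_73_110009 (0.45), RPS16 (0.47), RPS9 (0.49) and RPL31 (0.50), the last saturated on 4 arrays. RPL12 (4.26), RPL13 probe A_73_P094536 (3.50), RPS23, RPL19 (2.99) and RPS21 (2.88) held the widest.

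Probes of 1 gene could disagree by more than the subunits did. In 9 of the 62 genes with 2 or more probes measured on all 8 arrays, namely RPS25, RPL4, RPL35A, RPL15, RPL10, RPL27, RPS6, RPL17 and RPL13, the median changes of the probes lay more than 2-fold apart. RPL13, a large subunit protein, had the widest spread. Its probe A_73_P369166 read 7.04 (CTR), 4.73 (30 min), 4.43 (2 h), 4.42 (4 h), 7.04 (8 h), 6.56 (12 h), 4.43 (16 h) and 5.96 after 24 h. Its probe A_73_P128616 read 5.01 (CTR), 5.12 (30 min), 4.88 (2 h), 5.28 (4 h), 5.39 (8 h), 5.15 (12 h), 5.10 (16 h) and 4.95 after 24 h. The median changes of these probes were −2.31 and 0.11. The probe A_73_P094536 had −2.25, so the gene value of RPL13 (median change −0.86) lies far from each of these probes.

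Over all members measured on the 8 arrays, the lowest median changes were those of these RPL13 probes, RPL17 A_73_P085516 (−2.05), RPS6 A_73_P090016 (−2.04) and RPS12 A_73_P046601 (−1.55). The highest were those of the opposite RPL27 probe (0.54), RPL10 A_73_P099911 (0.32), a probe of RPL7L1 (0.24), RPL26L1 (0.21) and RPL13 A_73_P128616. The RPL10 probe, whose sequence is printed above, read 5.78 (CTR), 5.81 (30 min), 5.75 (2 h), 6.10 (4 h), 6.37 (8 h), 6.34 (12 h), 6.20 (16 h) and 6.10 after 24 h. It was above CTR from 4 h on, while RPL10 A_73_P511073 was below CTR throughout, with a median change of −0.82.

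This could be followed in probe pairs that overlap by 25 or more bases, such as the RPS23 and RPL17 pairs printed above. There were 30 such pairs in 20 genes, with some probes in more than 1 pair. The 13 pairs without a difference in their shared bases had a median gap between their mean changes of 0.14 on slide 1 and 0.24 on slide 2. The 17 pairs with 1 or more differing bases had 0.30 and 0.45. On slide 1 no pair was more than 2-fold apart, and on slide 2 there was 1 of 13 pairs without and 3 of 17 pairs with a difference. All 4 of these pairs were of RPL13 and had probes in common, so the counts rest on 1 gene.

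The printed pairs show the size. RPS23 probe A_73_P055346 had mean changes of −0.34 on slide 1 and −0.56 on slide 2, and A_73_P094301 had −0.85 and −1.32. RPL17 probe A_73_P064436 had −0.41 and −1.36, and A_73_P085516 had −0.97 and −2.21. In both genes the order of the probes was the same on both slides. The widest gap was 2.62 on slide 2, between the RPL13 probes A_73_P128616 and A_73_P369166. The pair without any difference that lay more than 2-fold apart on slide 2 was also of RPL13, where A_73_P128616 had 0.15 and 0.08 and A_73_P305537 had −0.34 and −1.23, a gap of 1.31 on slide 2. Whether the bases themselves matter was not tested, and transcripts of near-identical copies cannot be separated on this array.

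Probes also differed in their direction. Set against the RefSeq-derived probes of their gene, 236 member probes outside the dark region ran the same way on the genome, 8 ran the opposite way and 42 could not be assigned. All 8 opposite probes came from EST or cDNA records. Among the same-way probes 210 were well above background on all 7 scanner-read arrays and 14 on none, whereas among the opposite ones 2 were on all 7 and 3 on none. Of the 194 same-way probes measured on all 8 arrays, the median of their median changes was −0.60, and 10 were above 0.

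The opposite RPL27 probe printed above read 1.02 (CTR), 1.84 (30 min), 1.57 (2 h), 1.62 (4 h), 1.47 (8 h), 0.84 (12 h), 2.31 (16 h) and 0.73 after 24 h. All 4 slide 2 arrays were higher than CTR there, 16 h by 1.28. The RPL27 probe A_73_P215362, in the usual direction, read 6.93 (CTR), 6.16 (30 min), 5.87 (2 h), 6.04 (4 h), 6.84 (8 h), 6.46 (12 h), 6.19 (16 h) and 6.63 after 24 h, below CTR throughout. The gene value of RPL27 joins these unlike probes. The opposite RPLP0 probe read −0.05 (CTR), 0.95 (30 min), 0.89 (2 h), 0.52 (4 h), 0.80 (8 h), −0.04 (12 h), with a highest value of 1.53 (16 h, a change of 1.57), and was dim at 24 h. The opposite RPL35A probe had a change of 0.96 at 16 h and 0.64 at 8 h, with −0.38 to 0.15 at the other time points. The opposite RPL10 probe was measured on 5 arrays and not on CTR, so it has no change. What these probes hybridise with was not tested.

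Of the member probes measured on both arrays, 3 were 2-fold or more higher than CTR at 30 min, and the same 3 were at 2 h. They are the RPL12, RPL19 and RPS21 probes with AATAAA printed above. They make up 3 of 235 members (1.28%), beside 6.17% of all probes measured at both times. Members with AATAAA as a group were not higher. Among those measured and unsaturated on all 8 arrays, the 30 with AATAAA had a median of median changes of −0.77. The 112 without it had −0.52. RPL12 A_73_P045796 read 3.78 (CTR), 5.88 (30 min), 5.46 (2 h), 2.44 (4 h), 3.43 (8 h), 2.91 (12 h), 1.62 (16 h) and 2.50 after 24 h. RPL19 A_73_P048946 read 4.89 (CTR), 6.73 (30 min), 6.32 (2 h), 3.73 (4 h), 4.92 (8 h), 4.62 (12 h), 3.73 (16 h) and 4.45 after 24 h. RPS21 A_73_113374 read 3.83 (CTR), 5.75 (30 min), 5.37 (2 h), 3.15 (4 h), 3.37 (8 h), 2.87 (12 h), 3.31 (16 h) and 3.16 after 24 h.

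In each the 30 min and 2 h arrays were the highest, and 4 h was below CTR, under all scalings tried. No other measured probe of these genes was 2-fold or more higher than CTR at 30 min or 2 h. The other RPL19 probe was saturated on at least 1 array, so for RPL19 a like rise cannot be judged. RPS21 probe A_73_P074146, for example, read 6.72 (CTR), 6.85 (30 min) and 6.41 (2 h). On the same 2 arrays the leukocyte markers PTPRC, CD3E, CD14 and CD68 were measured at 8 and 9 of their 10 probes, against 1 to 3 on the other 6 arrays, with a summed level of 72.6 at 30 min and 49.0 at 2 h against 3.30 on CTR and 3.38 to 13.0 elsewhere. At 16 h the fibroblast markers were measured at 18 of 33 probes with a summed level of 85.8, against 7.60 on CTR and at most 7.09 at the other time points. Endothelial markers were measured at 0 to 2 of 10 probes. The part of these cell types in the values was not tested, and in bulk RNA a change in the mixture of cells and a change in RNA per cell cannot be told apart.

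Within slide 2, the early arrays could be set against 16 h, which takes the slide out of the comparison but not the time. The 211 members measured on all 8 arrays had medians of −0.44 (30 min), −0.58 (2 h) and −0.48 (4 h) against 16 h, while all other probes had −0.26, −0.25 and −0.01. Within slide 1, against 8 h, they had −0.45 at 12 h and −0.18 at 24 h, while the others had −0.17 and −0.06. Saturated probes are included here, since only 142 of the 211 members were unsaturated on all 8 arrays. Slide 1 held many of them, with 83 (8 h), 92 (12 h) and 70 (24 h) member probes saturated. A probe saturated on both arrays gives only the difference between their 75th percentiles. The slide 1 medians therefore cannot show a fall after 8 h, and they were not read without saturated probes.

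Other genes of the translation machinery were read in the same way. Of 23 further genes with TOP mRNAs, such as elongation factors, 22 were measured, with medians of −0.48 (30 min), −0.62 (2 h), −0.42 (4 h), −0.12 (8 h), −0.34 (12 h), −0.03 (16 h) and −0.31 after 24 h. Of these, 2 were lower by 2-fold at 30 min, 4 at both 2 h and 4 h, 0 at 8 h and 12 h, 3 at 16 h and 1 at 24 h, and 0 were higher. Over all gene names read the same way, the shares lower by 2-fold in order of time were 13.7%, 22.1%, 13.4%, 2.57%, 5.63%, 9.89% and 3.06%, and the shares higher 7.72%, 5.55%, 5.74%, 2.15%, 0.68%, 9.44% and 0.637%. Of 41 genes of ribosome biogenesis, which make and process ribosomal RNA, 22 to 30 were measured, with medians of −0.81, −0.72, −0.43, 0.10, −0.16, −0.48 and −0.33 in order of time. Of these, 10 of 22 were lower by 2-fold at 30 min, 8 of 30 at 2 h and 3 of 30 at 4 h, with 0 at 8 h and 12 h. At 16 h there were 5 of 23 and at 24 h 1 of 26, and 1 gene was higher, at 8 h. The 4 h count lies below the share over all gene names, and those at 2 h and 24 h near it. Under normexp the TOP medians were 0.08 (2 h), 0.26 (4 h) and 0.12 (12 h), and the biogenesis medians 0.17 at 4 h and 0.19 at 12 h, so these signs depended on the background correction. The differences between these lists and the ribosomal proteins were not tested.

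Not every member could be read. Outside the dark region, 35 probes in 32 genes stayed dim on all 7 scanner-read arrays, although 30 of these genes had another probe that was bright on all 7. Of the 40 probes from EST or cDNA records 28 were dim on all 7 arrays, against 7 of the 246 from RefSeq or Ensembl records. The 18 probes in the dark region of CTR had a median change of 1.06, 9 of them more than 2-fold higher and RPL23 at 7.30, and no change was read from them.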

How the data were processed

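RNA from buffalo mammary epithelial cells was labelled with Cy3 by a T7-primed amplification and hybridised to bovine 1-colour arrays, 1 per condition. The authors scanned the arrays and deposited the intensity of each spot from Feature Extraction 9.5.3.1, together with a table of log2 values scaled in GeneSpring to the 75th percentile. Processed intensities were here averaged over the spots of a probe after outlier spots had been left out, taken as log2 and reduced by the 75th percentile of the array. At 30 min the scanner values departed from the deposited log2 values by a median of −4.10 over the member probes (Pearson's r across probes 0.186), so the deposited log2 values were used there. On the other arrays r was at least 0.9999. A ratio is array over CTR, on the log2 scale. A probe entered a comparison where it was well above background on both arrays. At 30 min, where no such flag could be used, it had to reach the highest of the detection limits of the other 7 arrays, the saturation flags were those of the 30 min scanner file, and the CTR spot spread stood for the error.

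Probes in rows 216 to 330 and columns 30 to 59, dark on CTR, were left out. The error of a change is the median SD between repeat spots, combined over both arrays. RPL32 was the sole member with 4 spots. The number of arrays limits the precision, and no test was made. Named genes were the reference, stalk, 5S particle and paralog genes, RPS6, RPS3, RPSA, RPS27A and RPL22, the 5 highest and lowest median changes, the 5 widest and narrowest ranges, and genes whose probes disagreed by over 2-fold. RPS24, RPL23 and the opposite and paired probes were named after their values were seen. Members, lists and alternatives were chosen with earlier results of these data known. Gene names are those of the array, 79 of 82 being symbols in the buffalo RefSeq annotation. Alternatives were quantile normalization and normexp with offset 50 (limma 3.58.1, R 4.3.3), the deposited table, other filters and other baselines. Scripts ran in Python 3.11.15 with pandas 2.3.3 and were tested on simulated data.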

Additional observations from a re-analysis of the deposited data

How the results depend on the processing

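No paired analysis was possible because each condition had 1 array, and for the same reason no replicate could be left out. Normexp was not run at 30 min. The median change of the ribosomal protein probes stayed within the error of a change from the value given in 78 of 94 alternative values. The difference between subunits did so in 93 of 94. Each subunit difference was itself smaller than that error, so the second count cannot show that its size or sign held. A value that stayed within the error could also change sign. Quantile normalization gave medians of −0.23 (30 min), −0.35 (2 h), −0.33 (4 h), −0.062 (12 h) and −0.059 (24 h). Normexp gave −0.15 (2 h), −0.050 (4 h) and −0.10 (12 h). It raised the median of the other probes from −0.40 to 0.09 at 2 h and from −0.16 to 0.30 at 4 h. The median of bright probes as centre gave −0.45 at 30 min. Relative to the median of the 8 arrays in place of CTR, the medians were −0.20 (30 min), −0.35 (2 h), −0.19 (4 h), 0.28 (8 h), −0.057 (12 h), 0.090 (16 h) and 0.094 after 24 h. They were thus above 0 at 8 h, 16 h and 24 h. Levels set against a probe's own median lie on both sides of 0 by construction, so these signs cannot test the change from CTR. These values are nonetheless counted among the 94. With the scanner intensities at 30 min, the median was −5.00, the difference between subunits 3.25 and RPL22 was at 1.62, above CTR. The median range became 0.864 under normexp and 0.871 under quantile normalization.

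Counts of probes lower by 2-fold depended more on the choices, and 61 of 101 stayed within 1.5 times. With 1 value per gene they were 17, 30, 25, 0, 4, 7 and 3 in order of time, and past 3-fold 16, 25, 30, 0, 1, 13 and 4. Relative to the median of the 8 arrays they were 7, 12, 19, 0, 0, 8 and 2, which is another comparison than that with CTR but is counted among the 101. Quantile normalization gave 35 (30 min), 43 (2 h), 52 (4 h) and 3 (12 h). Normexp gave 18 (2 h), 20 (4 h), 0 (8 h) and 1 (12 h). The bright-probe centre gave 30 (30 min), 63 (2 h) and 4 (12 h). Set against 16 h, chosen after seeing the data, they were 29 (30 min), 48 (2 h) and 34 (4 h). Scanner intensities gave 116 at 30 min, and leaving out saturated probes 8 at 12 h. At 8 h the count was 5 over all members outside the dark region, 1 over members bright on every array and 1 without paralogs. The cause of these shifts was not tested. Leaving out the opposite probes, also added after seeing the data, moved no count of lower probes beyond 1.5 times. Among named genes 287 of 363 alternative values stayed within the error of a change from the value given, 75 moved further and 1 was counted as turned. A sign change was counted as turned only where the value given was a change of 2-fold or more. Sign changes of smaller values, such as those given with the genes above, lie within the other counts.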
